A study of Mus musculus with 6 samples.

Results

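The 10 listed genes of coenzyme Q synthesis were looked up by symbol in the platform annotation of a mouse melanoma array series, and 9 of the 10 had a feature. Pdss1 had none under its symbol or its gene identifier, so Pdss2, Coq2, Coq3, Coq4, Coq5, Coq6, Coq7, Coq8a and Coq9 are described, out of 19505 genes measured in all. Each of the 9 had a single transcript cluster, the array's unit of probes for a gene. The set was chosen on the deposited values of Coq8a, which was lower at 40 µM than in control, and the other members were added for their place in the pathway. The values at 40 µM against control therefore describe the set. Counts of passing genes in that contrast are not read as a test of it.

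The cells were B16F10, a pigmented mouse melanoma line kept in RPMI1640. They were seeded for 24 h and then kept for 48 h in medium alone (control, 0 µM) or with 2.5 µM or 40 µM of a compound written as di-sq in the labels and SQ-diEG in the series title. RNA from 2 samples per group was hybridised to 1-colour Affymetrix arrays, 6 in all, and expression is given on the authors' log2 scale. The labels do not say whether the replicates were separate cultures, so the spread between them, and each p-value, may be technical. The titles, source names and treatment fields define the groups, while the free-text descriptions of the 4 treated samples name plain medium or a different agent. All 7 melanocyte markers (Tyr, Tyrp1, Dct, Pmel, Mlana, Mitf and Sox10) had group means between 12.7 and 19.0, above background, which marks the cells as melanocytic and does not tell one melanoma line from another. All 14 measured markers of fibroblasts, keratinocytes, leukocytes and endothelium had group means between 2.98 and 5.70.

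Coenzyme Q, or ubiquinone, is a lipid with a redox-active ring and a long isoprenoid tail that carries electrons between dehydrogenases and the respiratory chain in the inner mitochondrial membrane, and its reduced form is an antioxidant of membranes. The tail is built from products of the mevalonate pathway by the Pdss1-Pdss2 enzyme and joined to a ring precursor by Coq2. The ring is then modified by Coq3, Coq4, Coq5, Coq6 and Coq7, with Coq9 as the lipid-binding partner of Coq7. These proteins gather in a matrix-side assembly often called complex Q. The pathway also needs Coq8a, an ATPase of the UbiB family of atypical kinases.

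The promoter windows of Coq8a, the member with the largest difference at 40 µM, and of Coq2, whose 3 groups lay apart in the opposite direction, are shown so that the text can refer to their sequence. RefSeq lists 2 starts for Coq8a, at chr1:180196021-180196270 and chr1:180193486-180193735 upstream of each (GRCm38.p6, minus strand, chromosome 1), and 1 for Coq2, at chr5:100674257-100674506 (minus strand, chromosome 5). Each line gives the 250 bases before the annotated start, 5′ to 3′, and capitals mark the motifs named in the next paragraph.
Coq8a, first start: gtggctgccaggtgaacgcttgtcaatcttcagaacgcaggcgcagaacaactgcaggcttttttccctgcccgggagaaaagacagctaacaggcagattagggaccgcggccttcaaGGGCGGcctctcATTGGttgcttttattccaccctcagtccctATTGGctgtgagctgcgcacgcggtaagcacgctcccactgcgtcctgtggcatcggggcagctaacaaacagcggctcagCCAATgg
Coq8a, second start: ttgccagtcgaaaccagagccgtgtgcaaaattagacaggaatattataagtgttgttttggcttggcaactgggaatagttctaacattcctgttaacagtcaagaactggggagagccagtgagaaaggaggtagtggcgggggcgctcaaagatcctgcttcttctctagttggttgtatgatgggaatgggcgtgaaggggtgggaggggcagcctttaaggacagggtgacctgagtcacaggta
Coq2: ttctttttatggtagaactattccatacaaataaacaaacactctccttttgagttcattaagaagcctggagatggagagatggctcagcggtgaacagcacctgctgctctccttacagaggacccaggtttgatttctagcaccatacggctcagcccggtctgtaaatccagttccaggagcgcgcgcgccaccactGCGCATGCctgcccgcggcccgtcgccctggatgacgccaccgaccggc

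A set of 7 motifs was searched on both strands, namely the CCAAT box (CCAAT), the GC box (GGGCGG), the TATA box (TATAAA), the E-boxes CACGTG and also CATGTG, the estrogen-related receptor element (AAGGTCA) and the core of the NRF1 palindrome (GCATGCGC). The first Coq8a window held 3 CCAAT boxes, which begin 119, 88 and 7 bases before the start, and 1 GC box 131 bases before it. Of all 32851 windows of this length, 33.8% held a CCAAT box and 32.7% a GC box. The second Coq8a window held none of the 7 motifs. The Coq2 window held 1 NRF1 core, 49 bases before its start and read on the opposite strand, a motif in 2.26% of all windows. Among the other listed genes, the Pdss1 window held the estrogen-related receptor element, found in 4.08% of windows, and the Coq4 window the E-box CACGTG, found in 6.02%. CCAAT boxes lay in windows of Coq6 and Coq7, and GC boxes in windows of Pdss2, Coq3, Coq6 and Coq9. CpG dinucleotides numbered 14 and 5 in the Coq8a windows and 15 in the Coq2 window, against a median of 6 over all windows. These matches describe letters in a window and were not tied to any change in expression. Windows were present for 9 of the 10 listed genes, Pdss1 among them, and Coq5 had no entry.

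Arrays give no read depth, and their number limits the precision. Background was set at 9.94, the mean over arrays of the level that 95% of the 5222 negative control features did not exceed. The group means of Coq3 and Coq5 lay above it in all 3 groups and those of Coq8a in control and at 2.5 µM. The means of the other 6 members lay below it in every group, within the range that negative controls also reach, and Coq6 lay below the median of the negative controls on 5 of the 6 arrays. Replicate 1 at 2.5 µM and replicate 1 at 40 µM had weaker spiked-in controls than the rest. The means of their hybridisation controls were 10.4 and 10.3, where the other 4 arrays had 10.8 to 11.2, and those of their poly-A controls 5.65 and 5.63, where the others had 6.35 to 7.42. The interquartile range over genes was also wider on them, at 5.20 and 5.43 against 4.90 to 4.94. These 2 arrays are called the low arrays here. The highest control means, 11.2 and 7.42, were both on replicate 2 at 40 µM, so that array too stood apart from the 2 controls. Over all genes, the median difference from the control mean lay between -0.04 and 0.01 on the 4 treated arrays.

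**Figure D1:**
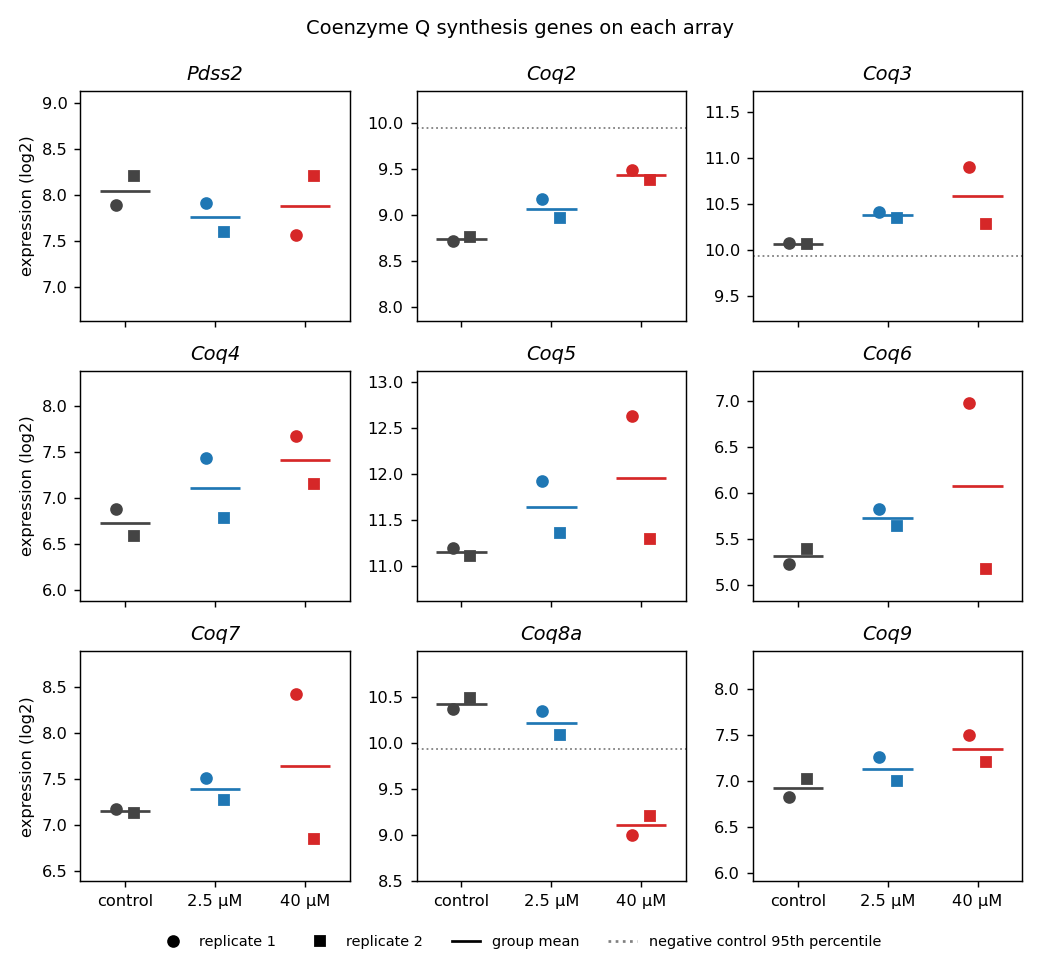
Log2 expression (y axis) of each of the 9 measured genes by group (x axis), with a circle for replicate 1, a square for replicate 2, a bar at the group mean and, where it falls in the panel, a dotted line at the negative control 95th percentile (9.94). Every panel spans the same number of log2 units, so the Coq8a values at 40 µM sit visibly apart from the other groups, and Coq5, Coq6 and Coq7 show a wide gap between the 2 arrays at 40 µM.

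Coq8a, the kinase-like ATPase, was at 10.37 and 10.49 in the 2 controls, at 10.35 and 10.08 with 2.5 µM and at 9.01 and 9.21 with 40 µM. Both arrays at 40 µM were lower than all 4 other arrays, and the 2.5 µM arrays were just below the controls. The mean at 40 µM was 9.11 ± 0.14 and that in control 10.43 ± 0.09 (SD, n = 2), which is 2.50-fold lower, or -1.32 on the log2 scale (SE 0.21). Because this value chose the set, it is given with no test. The difference was of similar size on both arrays at 40 µM, at -1.42 on the low array and -1.22 on the other. The difference of 40 µM minus 2.5 µM was -1.34 between the 2 low arrays and -0.87 between the replicate 2 arrays. The poly-A controls of the replicate 2 arrays were at 7.42 (40 µM) and 6.79 (2.5 µM), so these arrays are not alike. Both readings at 40 µM lay under 9.94. In RNA from whole samples, less transcript in every cell and fewer cells that carry it cannot be told apart.

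The enzymes of the tail did not share this pattern. Pdss2, the measured subunit of the tail-building synthase, was at 7.88 and 8.20 in control, 7.91 and 7.59 at 2.5 µM and 7.56 and 8.20 at 40 µM. Its groups overlapped throughout. Coq2, the polyprenyltransferase that joins tail and ring, was at 8.71 and 8.75 in control, 9.17 and 8.96 at 2.5 µM and 9.48 and 9.37 at 40 µM. The groups lay in the order of the dose without overlap, and the 40 µM difference from the control mean was 0.75 on the low array and 0.64 on the other. The difference of the means at 40 µM was 0.69 (SE 0.20), between values below 9.94.

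The methyltransferases and hydroxylases of the ring were higher on the low array at 40 µM than on any other array. Coq3, the O-methyltransferase, was at 10.08 and 10.07 in control, 10.42 and 10.35 at 2.5 µM and 10.91 and 10.28 at 40 µM. All 4 treated arrays were above both controls. Coq5, the C-methyltransferase, was at 11.20 and 11.11 in control, 11.93 and 11.36 at 2.5 µM and 12.63 and 11.30 at 40 µM. Here too every treated array was above the controls, but on the second array at 40 µM only by 0.14 from their mean, against 1.47 on the first.

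Coq6, a flavin-dependent hydroxylase, was at 5.23 and 5.39 in control, 5.82 and 5.64 at 2.5 µM and 6.98 and 5.17 at 40 µM. Coq7, the di-iron hydroxylase of the penultimate step, was at 7.18 and 7.13 in control, 7.51 and 7.27 at 2.5 µM and 8.43 and 6.85 at 40 µM. For both, the low array at 40 µM was the highest of the 6 and the other array at 40 µM the lowest. Without the low array, their difference from control at 40 µM turned from 0.77 to -0.14 for Coq6 and from 0.48 to -0.31 for Coq7, and that of Pdss2 from -0.16 to 0.16.

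Coq4, a core component of the assembly, was at 6.88 and 6.59 in control, 7.44 and 6.78 at 2.5 µM and 7.68 and 7.15 at 40 µM. Coq9, the lipid-binding partner of Coq7, was at 6.82 and 7.02 in control, 7.26 and 7.00 at 2.5 µM and 7.50 and 7.20 at 40 µM. In both genes the 40 µM arrays were above the controls and the 2.5 µM arrays overlapped them. At 40 µM Coq4 differed from control by 0.68 (SE 0.31) and Coq9 by 0.43 (SE 0.23). All of these readings were below 9.94.

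**Figure D2:**
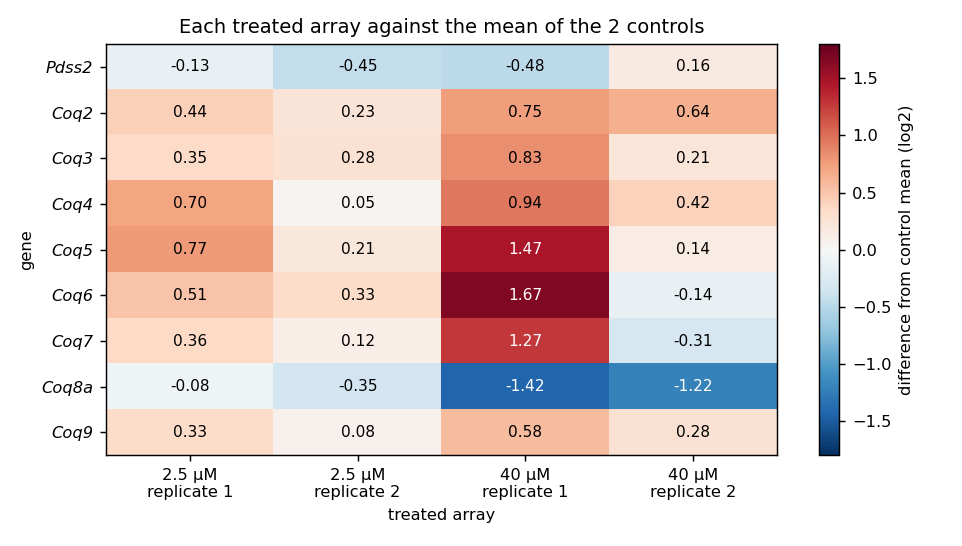
Difference of each treated array (x axis) from the mean of the 2 controls, on the log2 scale, for the 9 genes (y axis), in colour from lower (blue) to higher (red) with the value printed in each cell. Coq8a is low on both arrays at 40 µM (-1.42 and -1.22), Coq2 is higher on all 4 arrays (0.23 to 0.75), and Coq5, Coq6 and Coq7 are high on replicate 1 at 40 µM (1.27 to 1.67) and between -0.31 and 0.14 on replicate 2.

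Counted over the set at 40 µM against control, 7 of the 9 members were higher and 2 lower. Of all 19505 genes, 9507 were higher and 9997 lower. The members' median log2 change was 0.52 (0.60 for the 8 without Coq8a), against -0.01 over all genes. It was 0.09 over genes with a mean at or above 5.80, the median of the gene means, which all members but Coq6 reached. Leaving aside Coq8a, none of the 8 passed (limma, adjusted p over all genes), and no gene in the whole table did (0%). Of these 8, 1 had an unadjusted p under 0.05, Coq2, which was higher. Over all genes, 5.18% were higher and 6.86% lower at that level. In 5 members, Coq2, Coq3, Coq4, Coq5 and Coq9, the 40 µM arrays lay above the controls without overlap, as in 22.2% of all genes, and in 1, Coq8a, below them, as in 26.3%. Since the set was picked from this contrast, nothing is read from these counts.

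The size at 40 µM followed the low array for most members. On replicate 1 the 8 members other than Coq8a had a median difference from control of 0.89, with 7 of 8 higher, and on replicate 2 a median of 0.18, with 6 of 8 higher. At 2.5 µM the medians were 0.40 on the low array and 0.16 on the other, with 7 of 8 higher on each. The part of the low arrays in these differences was not tested. Over the whole table, 2235 genes (11.5%) passed with 40 µM replicate 2 left out, the lone array then being taken to vary like the other groups, and 3749 (19.2%) passed with both low arrays left out, when the 2 controls supplied all of the error. Passes of members in these fits are not given as tests, since the contrast chose the set.

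The contrast between 2.5 µM and control did not choose the set, although it shares the control arrays. It asked whether the lower dose changed these genes. None of the 9 members passed, and the smallest adjusted p was 0.609, for Coq2 (limma, over all genes). No gene passed at this dose (0%). Of the 9, 7 were higher and 2 lower, and of all 19505 genes 9990 were higher and 9514 lower. The members' median log2 change was 0.31, against 0.01 over all genes and 0.07 over genes with a mean at or above 5.80. At an unadjusted p under 0.05 no member was counted in either direction, where 4.24% of all genes were higher and 5.38% lower. The 2.5 µM arrays lay above the controls without overlap in 5 members (Coq2, Coq3, Coq5, Coq6 and Coq7), as in 27.1% of all genes, and below them in 1 (Coq8a), as in 25.9%.

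The sizes at 2.5 µM were small against their errors. Coq2 differed by 0.33 with a 95% interval from -0.13 to 0.80, and Coq3 by 0.31 with an interval from -0.26 to 0.89. Coq8a differed by -0.21, with an interval from -0.70 to 0.27. The -1.32 seen at 40 µM lies outside it, but that value chose the set and shares the control arrays, so no inference is drawn. The widest interval was that of Coq6, from -0.82 to 1.66 around 0.42. With the low arrays entered as a covariate, the median over the members was 0.015, and Coq6 and Coq7 turned to -0.08 and -0.22.

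**Figure D3:**
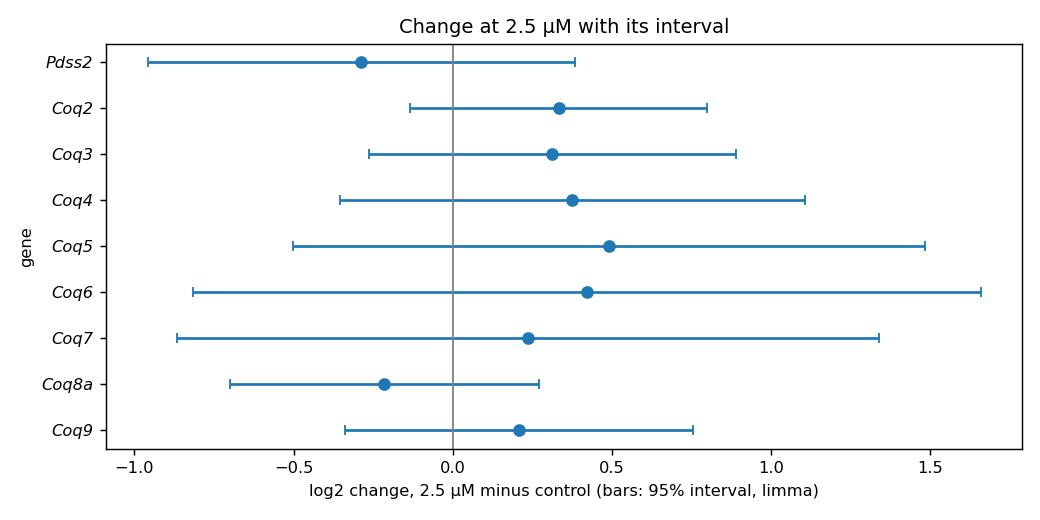
Log2 change at 2.5 µM against control (x axis) for the 9 genes (y axis), with points at the limma estimate from all 6 arrays and bars for its 95% interval. Every interval includes 0, that of Coq8a reaching from -0.70 to 0.27 and that of Coq6 from -0.82 to 1.66.

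The comparison of the 2 doses asked whether 40 µM differed from 2.5 µM, and it shares the 40 µM arrays that chose the set, so Coq8a is described without a test. Its log2 difference was -1.11 (SE 0.21), and both 40 µM arrays were below both 2.5 µM arrays. The other 8 members were all higher at 40 µM by their means, from 0.13 (Pdss2) to 0.36 (Coq2), as were 9671 of 19505 genes. Their median was 0.28, against -0.00 over all genes and 0.03 over genes with a mean at or above 5.80. None of the 8 passed, the smallest adjusted p being 0.854 (limma, over all genes), and no gene passed (0%). Without overlap, Coq2 was higher, as were 12.4% of all genes, and Coq8a lower, as were 16.3%. At an unadjusted p under 0.05 none of the 8 was counted in either direction, where 2.34% of all genes were higher and 3.28% lower. The 2 low arrays gave a median of 0.40 for these 8 members, 40 µM minus 2.5 µM, with 7 of 8 higher, and the other pair gave 0.07 with 4 of 8 higher. Without the low array at 40 µM, the differences of Coq3, Coq5, Coq6 and Coq7 turned to -0.10, -0.35, -0.56 and -0.54. That fit keeps the low array at 2.5 µM. Between the replicate 2 arrays alone, the differences of these genes were -0.07, -0.07, -0.47 and -0.42.

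Among 11 accessory and related genes, 9 were measured, and none passed in any comparison (limma, adjusted p over all genes of 0.479 or more). All 9 had means below 9.94 in every group. Coq8b, the paralog of Coq8a, was at 7.66 and 7.50 in control, 7.65 and 7.86 at 2.5 µM and 7.62 and 7.65 at 40 µM. Its groups overlapped, and at 40 µM it differed from control by 0.06, with a 95% interval from -0.44 to 0.55. The more distant UbiB relatives Adck1, Adck2 and Adck5 differed from control at 40 µM by -0.23 (SE 0.22), 0.59 (SE 0.32) and 0.42 (SE 0.45). On the low array Adck2 differed by 0.88 and on the other by 0.30, and Adck5 turned from 1.14 on the low array to -0.30 on the other. Coq10a and Coq10b, lipid-binding proteins that coenzyme Q needs to work in respiration, differed by 0.36 (SE 0.26) and 0.96 (SE 0.53). For Coq10a this was 0.58 on the low array and 0.14 on the other.

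Coq10b was at 5.91 and 5.89 in control, 7.05 and 5.88 at 2.5 µM and 7.56 and 6.15 at 40 µM, and thus high on the 2 low arrays. Pptc7, a mitochondrial phosphatase, differed by -0.27 (SE 0.24) at 40 µM, and Stard7, a lipid transfer protein, by 0.09 (SE 0.36). Pptc7 was at -0.01 from control on the low array and -0.53 on the other, and Stard7 turned from 0.55 to -0.38. Hpdl, an enzyme of the ring precursor in human cells, was between 3.12 and 3.47 on all arrays, well under the negative control medians. Fdxr and Fdx2, which in human cells pass electrons to COQ6, had no feature.

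Of 8 isoprenoid precursor enzymes, which supply the tail, 7 were measured and all 7 were higher at 40 µM by their means, with a median log2 change of 0.44. None passed (limma, smallest adjusted p = 0.349), and 2 of the 7 were higher at an unadjusted p under 0.05, as were 5.18% of all genes, namely Fdps (1.28, SE 0.37) and Idi1 (1.36, SE 0.46). Fdps differed by 1.86 on the low array and 0.70 on the other, and Idi1 by 1.85 and 0.87. The median lay at 1.10 on the low array at 40 µM and at -0.08 on the other. At 2.5 µM 5 of the 7 were higher, with a median of 0.33, and Mvd, which makes isopentenyl diphosphate, had the smallest p with a change of -0.49 (limma, adjusted p = 0.585).

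The 11 enzymes that hand electrons to coenzyme Q were all measured, and none passed in any comparison (limma, smallest adjusted p = 0.423 at 40 µM and 0.518 at 2.5 µM). At 40 µM 7 were higher and 4 lower, with a median log2 change of 0.17. Etfdh, which takes electrons from fatty acid oxidation, was at 11.33 and 11.30 in control, 11.60 and 11.98 at 2.5 µM and 11.60 and 12.10 at 40 µM. Its treated arrays were all above the controls, and here the low arrays were the lower of each pair. Sdhc, a membrane subunit of succinate dehydrogenase, was at 10.11 and 10.24 in control, 10.88 and 10.31 at 2.5 µM and 10.74 and 10.68 at 40 µM. Chdh (choline dehydrogenase) differed by -0.46 at 40 µM and by -0.61 at 2.5 µM, its highest array value being 4.43, far below background. At 40 µM this was -0.75 on the low array and -0.17 on the other.

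All 12 listed genes of general mitochondrial proteins (Cs, Vdac1, Tomm20, Hspd1 and others) were measured. Their median difference from control was 0.56 on replicate 1 at 40 µM, with 12 of 12 higher, and -0.09 on replicate 2, with 3 of 12 higher. On the low array at 2.5 µM it was 0.26, with 9 of 12 higher and Vdac1, Tomm40 and Hspa9 lower, and on the other -0.11, with 4 of 12 higher. The 8 synthesis genes without Coq8a had medians of 0.89 and 0.18 at 40 µM, as given above, and Coq8a lay below control on both. Whether the mitochondrial genes and the synthesis genes differ from each other was not tested.

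**Figure D4:**
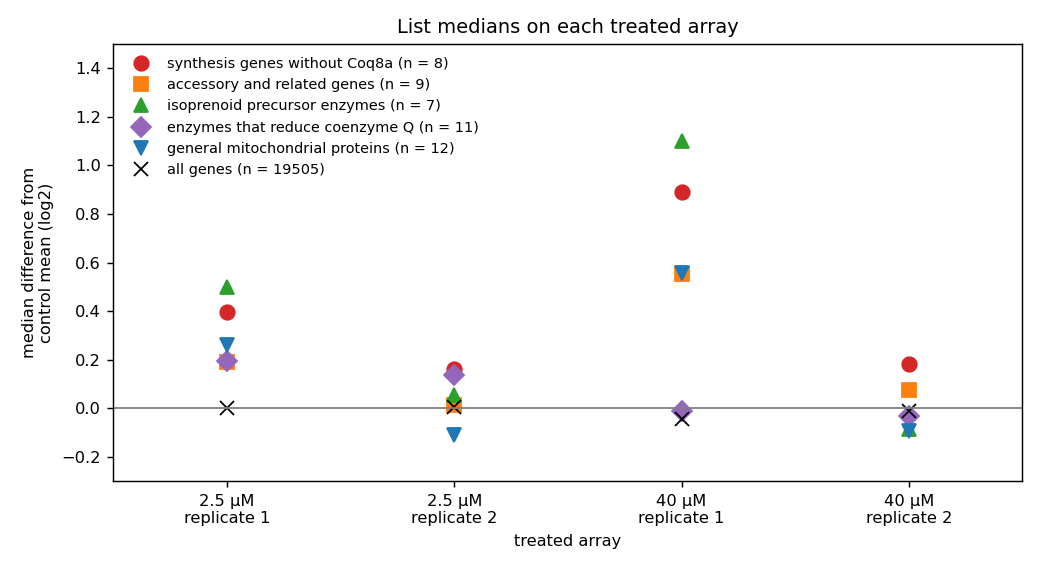
Median difference from the control mean on the log2 scale (y axis) for 5 gene lists and all genes on each treated array (x axis). For the 8 synthesis genes without Coq8a it is 0.40 and 0.16 at 2.5 µM and 0.89 and 0.18 at 40 µM (replicates 1 and 2), and for all genes it stays between -0.04 and 0.01.

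The genes with profiles nearest to Coq8a were sought among 4147 genes with a mean at or above 9.94, by the Euclidean distance over the 6 arrays between values centred on each gene's own mean. The 5 nearest were Masp1, a serine protease of the complement lectin pathway, Eps8, an actin regulator downstream of the EGF receptor, the small GTPase Rap2b, the melanosome adaptor Mlph and Nav2, a cytoskeletal navigator protein. Their distances lay between 0.36 and 0.56, against a median of 1.55 over the genes compared. These 5 were picked for nearness on the same 6 arrays, which share 3 groups. Their small distances, and Pearson correlations with Coq8a of 0.94 to 0.99, follow from that choice. The mean of Coq8a itself fell short of 9.94, so genes at its own level were not compared. Masp1 was at 14.39 and 14.50 in control, 14.34 and 14.30 at 2.5 µM and 12.85 and 13.50 at 40 µM. Its low array at 40 µM was the lower of the pair, as for Coq8a.

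**Figure D5:**
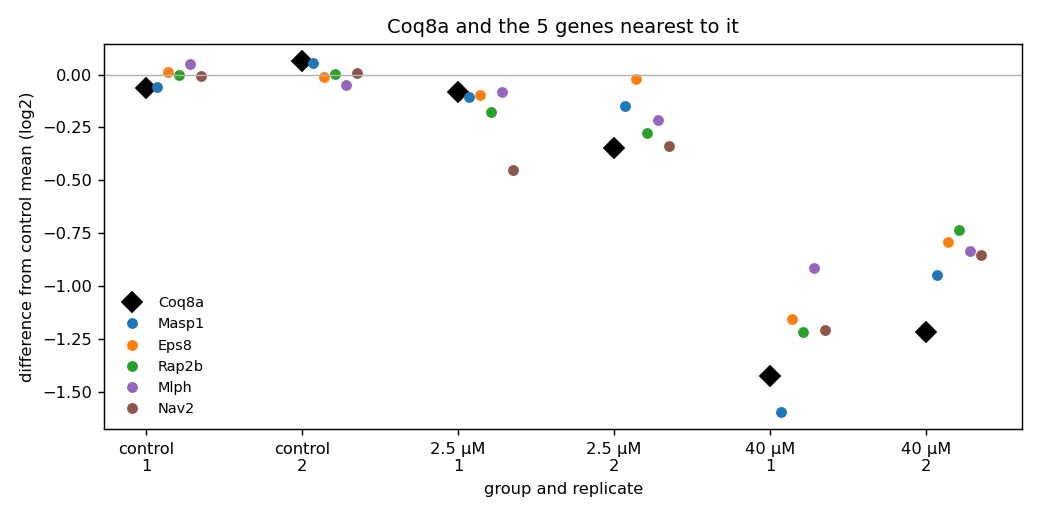
Difference from the control mean on the log2 scale (y axis) on each of the 6 arrays (x axis, group and replicate) for Coq8a (black diamonds) and the 5 genes nearest to it (circles, offset sideways for legibility). At 40 µM all 6 genes lie below control on both arrays, Coq8a at -1.42 and -1.22. The 5 were picked for nearness to Coq8a on these same arrays, so the likeness is built in.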

How the data were processed

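The deposited table holds log2 expression values of 28846 features on 6 arrays, made by the authors. The tools listed in the submitters' processing notes are RMA, Expression Console and Transcriptome Analysis Console, all for Affymetrix arrays. The deposited distributions were not identical between arrays. Values reached 19.88, beyond a plain 16-bit log2 scale, so folds are on the deposited scale. The step behind this, like versions and filters, was not given in the sources used here.

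Of 22206 transcript clusters, 19572 had exactly 1 gene symbol in the platform annotation and 2634 had none and were left out. Where a gene had several (55 genes), the cluster with the highest mean was used, leaving 19505 genes with no filter on level. limma 3.58.1 in R 4.3.3 was fitted to all 6 arrays with group means and a variance prior that follows the mean level (3 residual degrees of freedom, prior worth 4.11), with two-sided p-values adjusted by Benjamini and Hochberg's method over the 19505 genes (threshold 0.05). The fit was run on simulated data with known changes. Noise there was independent between genes, with spreads shuffled among them. It therefore does not cover differences shared by many genes of an array. Standard deviations are over 2 arrays. The members, the related lists and the alternatives were chosen with earlier results of these data known, and Phb1 was matched through an older symbol. All members and accessory genes are named, up to 3 precursor and 4 electron-donor enzymes by smallest p, and the 5 genes nearest to Coq8a. Alternatives were other normalization, centring, filters, prior, array weights, blocks, features and arrays left out. Promoter sequences are RefSeq's (GRCm38.p6).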

Additional observations from a re-analysis of the deposited data

How the results depend on the processing

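Both low arrays (replicate 1 at each dose) were left out first. At 40 µM against control 2 members and 3749 genes then passed, the members' median was 0.16, and Pdss2, Coq6 and Coq7 turned to 0.16, -0.14 and -0.31. At 2.5 µM against control 3991 genes and no member passed. At 40 µM against 2.5 µM 1 member and 2965 genes passed, the median was -0.067, and Coq3, Coq5, Coq6 and Coq7 turned to -0.067, -0.068, -0.47 and -0.42. Coq8a, whose difference chose the set, was 1 of the 2 members at 40 µM against control and the 1 member at 40 µM against 2.5 µM. Many genes outside the set passed in the same fits, so the counts of members are no test of the set. These fits have 1 array at each dose and an error from the 2 controls alone. With the low arrays as a covariate, the median at 2.5 µM was 0.015, Coq6 and Coq7 turned to -0.076 and -0.22, and 1 gene, no member, passed between the doses.

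Leaving out each array in turn gave, at 40 µM against control, 0 to 5 members and 0 to 2235 genes passing (both highest without 40 µM replicate 2), a members' median of 0.16 to 0.83, and values of -0.48 to 0.16 for Pdss2, -0.14 to 1.67 for Coq6 and -0.31 to 1.27 for Coq7. Between the doses the median ran from -0.10 to 0.52, Pdss2 from -0.19 to 0.45, Coq3 from -0.10 to 0.52, Coq4 from -0.022 to 0.63, Coq5 from -0.35 to 0.98, Coq6 from -0.56 to 1.25 and Coq7 from -0.54 to 1.04. Coq8a at 40 µM ran from -1.42 to -1.22 and Coq2 from 0.64 to 0.75. Genes passed only without 40 µM replicate 2, at 40 µM against control, with Coq8a among them. That fit has 1 array at 40 µM, and passes of members in it are no test of the set.

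The replicate block left 0 genes passing in each comparison and the medians at 0.52, 0.31 and 0.25. Replicate numbers share only a number here. Deviations of same-numbered arrays correlated at 0.39 between the doses and at -0.0045 and -0.0121 between control and each dose. The other alternatives, among them quantile normalization, median centring, filters at background (which left Coq3 and Coq5 of the 9 members) and at the median level, the prior without a trend, array weights and the 4 arrays compared alone, gave 0 genes passing and turned no member. With quantile normalization the members' median against control was lower, at 0.39 for 40 µM and 0.21 for 2.5 µM. Of 435 values of single members under the alternatives, 408 kept direction and side of the threshold, 19 reversed and 8 passed newly. Many of the 408 could not reverse. Each member has 1 cluster, so the choice of cluster changed nothing. The prior, array weights, replicate block, 4 arrays alone and an array dropped outside the contrast also left the log2 changes as they were. The 408 are therefore no measure of robustness. The 8 came from fits with 1 array at a dose. The causes were not tested.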
